A study of Mus musculus with 24 samples.

Results

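The miRNAs described here are those named miR-297, miR-466, miR-467 and miR-669 in mouse, the families of the tandem array of hairpins in an intron of the Polycomb group gene Sfmbt2. They were chosen by name alone, as every mouse miRNA on the Agilent array with 1 of these family names and no star, with any letter or arm suffix. This gave 20 of the 566 mouse miRNAs on the array. They were 2 of the miR-297 family (miR-297b-5p and miR-297c), 10 of the miR-466 family (miR-466a-3p, miR-466a-5p, miR-466b-5p, miR-466c-5p, miR-466d-3p, miR-466d-5p, miR-466f-3p, miR-466f-5p, miR-466g and miR-466h), 5 of the miR-467 family (miR-467a to miR-467e) and 3 of the miR-669 family (miR-669a to miR-669c). Another 4 miRNAs with these names have a star, the mark then used for the rarer strand of a hairpin, and were kept apart.

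A miRNA is cut from a hairpin transcript and guides a silencing complex to mRNAs that pair with its 5′ end. Sfmbt2 encodes a Polycomb group protein. In mice the gene is imprinted and is transcribed from the paternal copy in the early embryo and the extraembryonic tissues, and deletion of its miRNA cluster in mice disturbs the placenta. The cluster is known from rodents, and its hairpins are repeats of one another, so that many of its mature miRNAs are nearly alike in sequence.

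In the RefSeq annotation of the mouse assembly GRCm38.p6, which was used for names and gene order only, 81 miRNA genes carried these names and 71 of them lay within the span of Sfmbt2 on chromosome 2. These were also all of the 71 miRNA genes annotated there. They comprised 5 genes of miR-297, 23 of miR-466, 14 of miR-467 and 29 of miR-669. A miR-467, a miR-466 and a miR-669 gene followed each other in 11 places, as units of the repeat. By symbol, 18 of the 20 miRNAs matched a gene inside Sfmbt2, and miR-466a-3p and miR-466a-5p had no match. A single mature miRNA can come from many genes, with 10 copies for miR-467a, 12 for miR-669a and 8 for miR-466b-5p, so a signal cannot be assigned to 1 copy. Of the 4 genes matching miR-466f-3p and miR-466f-5p, 3 lay inside Sfmbt2.

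The array annotation added a further limit. The probes of 17 of the miRNAs were annotated to 1 miRNA and those of 3 to several. The probes listed under miR-466a-3p were also annotated to miR-466b-3p, miR-466b-3-3p, miR-466c-3p and miR-466e-3p, and those under miR-466a-5p to miR-466e-5p. Those under miR-669b were also annotated to miR-297a, and part of them to miR-466f. In all, the probes stood for 27 miRNA names, and near-identical miRNAs other than these may bind them too.

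The study compared 2 reference pools, selected to differ in miRNA content, across several microarray technologies. Reference 1 was an equal mixture of commercial total RNA from mouse testicle, ovary and embryos of 10 to 12 days, and Reference 2 an equal mixture from liver, heart and lung. No strain, treatment or age of the adult tissues is given in the sources used here. On the Agilent array the pools were hybridized in one color on a single slide. The study hybridized further arrays of each pool, saw one fail quality control, and drew 2 arrays of each reference at random, and these 4 are described here. Since both aliquots of a reference were drawn from the same pool, their spread is technical, and so are the p-values computed from it. Each reference is 1 mixture of 3 tissues, so a level cannot be assigned to 1 of them, and fewer cells of a type cannot be told apart from less RNA per cell.

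The arrays held 11340 spots for mouse miRNAs, with no saturated spot. The number of mouse miRNAs well above background was 234 and 244 on the Reference 1 arrays and 166 and 162 on the Reference 2 arrays. A miRNA counts as such on an array when at least 50% of the spots of 1 of its probes pass the scanner software's test against local background. The references were compared with limma on normalized log2 signals, and a miRNA was called higher or lower in Reference 1 at an adjusted p under 0.05 over all mouse miRNAs. Tissue markers largely followed the labels. Of 10 testis germ cell miRNAs 8 were higher in Reference 1, as were 5 of 5 miRNAs of embryonic mesenchyme and trunk, and all 3 liver, 6 heart and 5 blood cell miRNAs were lower. The testis miRNAs miR-449b, miR-465a-5p and miR-881 were well above background on no array. Of the 7 miRNAs of the miR-290 to miR-295 cluster, which is known for early embryo and trophoblast stem cells, none was well above background on any array and 3 were called lower. Of the 2 listed miRNAs of H19, miR-675-3p and miR-675-5p, 1 was called higher, and neither was well above background on any array.

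Signals of the 20 miRNAs were low throughout. The scanner's median spot signal, without background subtraction, ranged from 36.0 to 89.5 units over the Reference 1 arrays and from 39.0 to 52.25 over the Reference 2 arrays. The median of the 288 negative control spots was 48 and 44 on the Reference 1 arrays and 47 and 49 on the Reference 2 arrays, so the blank level itself differed between arrays. The study's threshold for a present spot, the trimmed mean of the negative controls plus 3 trimmed standard deviations, came to 52.7 and 48.68 units in Reference 1 and to 52.2 and 54.34 in Reference 2. Only 5 of the 20 miRNAs were well above background on any array, namely miR-467a, miR-467b, miR-467c, miR-467e and miR-669a, and all 5 were so in Reference 1 alone. Over the whole array, 261 mouse miRNAs passed this test at least once, 95 of them in Reference 1 alone and 16 in Reference 2 alone.

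**Figure D1:**
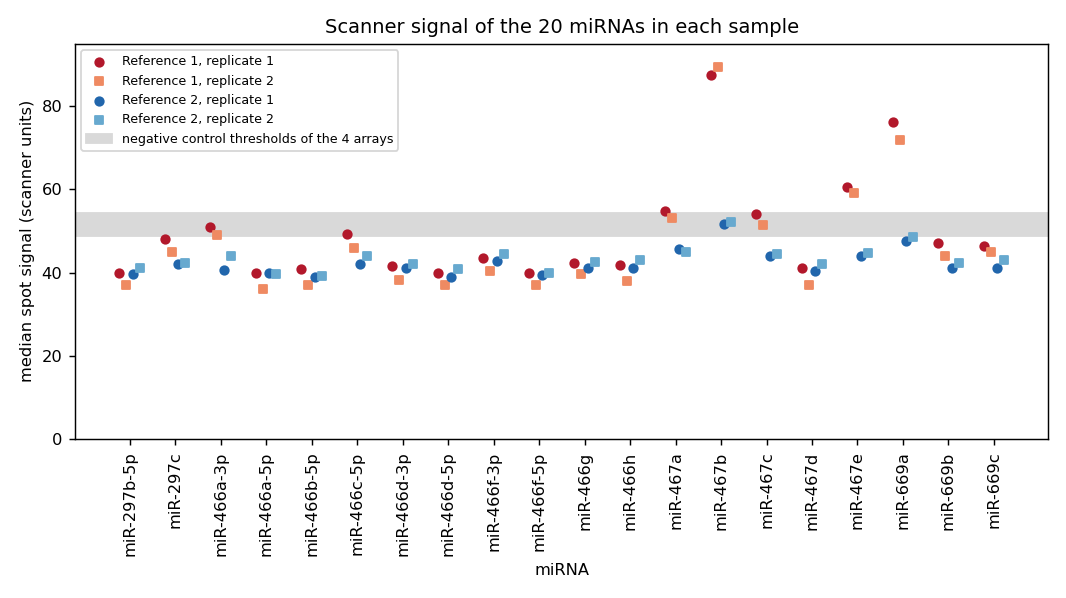
Median spot signal of each of the 20 miRNAs (vertical axis, scanner units, no background subtraction) in the 4 samples, with a gray band for the range of the 4 negative control thresholds, from 48.68 to 54.34 units. The Reference 1 points of miR-467b, miR-669a and miR-467e lie above the band, and nearly all other points lie within or below it.

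Of the 20 miRNAs, 10 were called higher in Reference 1 and 2 lower, and 8 were not called. Over all 566 mouse miRNAs 31.6% were called higher and 34.5% lower, with 179 and 195 calls. The median difference was 0.071 over the 20 and -0.011 over all mouse miRNAs. Both normalized Reference 1 values lay above both Reference 2 values in 10 of the 20 and below both in 7. Over all mouse miRNAs, 37.6% had Reference 1 wholly above, and 83.9% had no overlap in one direction or the other. By family, 1 of 2 miR-297, 2 of 10 miR-466, 4 of 5 miR-467 and 3 of 3 miR-669 miRNAs were higher. The 8 not called had differences from -0.041 to 0.038 and limma adjusted p-values from 0.0501 to 0.906. The 4 star strands (miR-297a*, miR-467a*, miR-467b* and miR-467e*) were not called, nor did any reach an unadjusted p under 0.05, and their differences ran from -0.031 to 0.043.

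**Figure D2:**
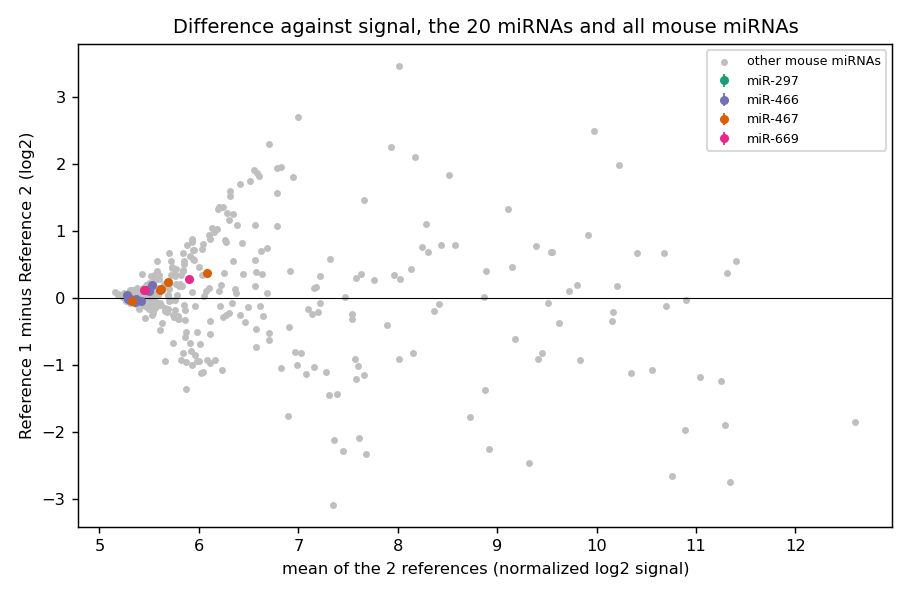
Difference between the references (vertical axis, Reference 1 minus Reference 2, log2) against the mean normalized log2 signal of both references (horizontal axis) for the 20 miRNAs, colored by family with the SE as bars, and for the other mouse miRNAs in gray. The 20 miRNAs sit at the dim left end with differences from -0.059 to 0.36, while the differences of all mouse miRNAs span from -3.09 to 3.47.

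Of the 5 miR-467 miRNAs, 4 were higher in Reference 1. miR-467b, which has been reported to target lipoprotein lipase mRNA in mouse, had scanner signals of 87.5 and 89.5 units in Reference 1 and 51.75 and 52.25 in Reference 2. Both Reference 1 values lay well above both Reference 2 values. It was the only 1 of the 20 that the scanner software called detected on all 4 arrays. All of its 20 spots (100%) exceeded the negative control threshold on both Reference 1 arrays, against 40% and 35% of them on the Reference 2 arrays. After normalization its log2 signal was 6.23 and 6.29 in Reference 1 and 5.91 and 5.89 in Reference 2, a difference of 0.36 ± 0.031 (SE, limma adjusted p = 2.11e-08). Because its Reference 2 signal was not well above background, the ratio has only a bound, and miR-467b was at least 1.24-fold higher in Reference 1 under this normalization. Over the 18 forms of the normalization that were fitted on spots the bound ranged from 1.02 to 1.24. This bound sets the mean of the bright reference against the dim reference's own signal or the lowest signal of any probe well above background on that array, whichever was higher.

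miR-467e had signals of 60.5 and 59.25 units in Reference 1 and 44 and 44.75 in Reference 2, with 95% and 100% of its spots over the threshold in Reference 1 and 0% in Reference 2. The Reference 2 values lay below the median of the negative controls on the same arrays. Its normalized log2 signal was 5.79 and 5.82 against 5.58 and 5.55, a difference of 0.24 ± 0.027 (limma adjusted p = 7.5e-07). miR-467a had 54.75 and 53 units in Reference 1 and 45.75 and 45 in Reference 2. It passed the background test on 1 of the 2 Reference 1 arrays, with 60% and 50% of its spots over the negative control threshold.

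On the normalized log2 scale, miR-467a read 5.68 and 5.70 in Reference 1 and 5.59 and 5.52 in Reference 2, a difference of 0.13 ± 0.028 (limma adjusted p = 0.00061). miR-467c had 54 and 51.5 units in Reference 1 and 44 and 44.5 in Reference 2. Its normalized log2 signal was 5.66 and 5.67 against 5.56 and 5.54, a difference of 0.12 ± 0.024 (limma adjusted p = 0.000417). For these 3 miRNAs the 2 references did not overlap, but the Reference 1 mean lay below the lowest signal of probes well above background in Reference 2, so no fold is given. The fifth of the group, miR-467d, is named here after its values were seen because it lay next to the threshold, with a difference of -0.041 ± 0.018 and a limma adjusted p of 0.0501. Its signals, 41 and 37 units in Reference 1 and 40.25 and 42 in Reference 2, all lay below the median of the negative controls.

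All of the 3 miR-669 miRNAs were higher in Reference 1. miR-669a, described in mouse cardiac progenitors as a repressor of MyoD, had signals of 76.25 and 72 units in Reference 1 and 47.5 and 48.5 in Reference 2. All of its spots (100%) exceeded the negative control threshold in Reference 1 and none (0%) did so in Reference 2. The normalized log2 signal was 6.06 and 6.02 against 5.76 and 5.75, a difference of 0.29 ± 0.028 (limma adjusted p = 1.52e-07). No fold is given, since its bound was 1.09 under this normalization and above 1 in only 10 of the 18 forms fitted on spots.

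miR-669b and miR-669c never passed the background test. miR-669b had 47 and 44 units in Reference 1 and 41 and 42.25 in Reference 2, and a normalized difference of 0.11 ± 0.021 (limma adjusted p = 0.000196). Its probes are also annotated to miR-297a, and part of them to miR-466f, so this difference may belong to any of the 3 names. miR-669c had 46.5 and 45 units in Reference 1 and 41 and 43 in Reference 2, and a normalized difference of 0.11 ± 0.023 (limma adjusted p = 0.000537). In both the references did not overlap, and in both the Reference 2 signals fell below the negative control median of their own array. The Reference 1 signals of miR-669b were at or below that median as well, and those of miR-669c were below it on 1 of the 2 arrays, so the call of miR-669b concerns a miRNA not measured above the blank in either pool.

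The miR-466 family was split. Of the 10, 2 were higher in Reference 1, 2 were lower and 6 were not called, and none of the 10 passed the background test. The probes listed under miR-466a-3p gave 51 and 49 units in Reference 1 and 40.5 and 44 in Reference 2. Of their spots, 35% and 60% exceeded the negative control threshold in Reference 1, against 0% and 5% in Reference 2. The normalized log2 signal was 5.61 and 5.63 against 5.39 and 5.47, a difference of 0.19 ± 0.027 (limma adjusted p = 1.53e-05), which may belong to any of the 5 miRNAs annotated to these probes. miR-466c-5p had 49.25 and 46 units in Reference 1 and 42 and 44 in Reference 2, a normalized difference of 0.10 ± 0.022 (limma adjusted p = 0.000636). Of its spots, 0% and 20% exceeded the negative control threshold in Reference 1, and 0% did so in Reference 2.

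The 2 lower miRNAs were miR-466h, whose 5p product has been described as pro-apoptotic in Chinese hamster ovary cells, and miR-466f-3p. miR-466h had 41.75 and 38 units in Reference 1 and 41 and 43 in Reference 2. These scanner signals overlapped, and without normalization the difference was -0.076 and not called (limma adjusted p = 0.571). Normalization placed the log2 signal at 5.34 and 5.31 against 5.38 and 5.40, a difference of -0.059 ± 0.019 (limma adjusted p = 0.0123). miR-466f-3p likewise overlapped on the scanner scale, with 43.5 and 40.25 units in Reference 1 and 42.75 and 44.5 in Reference 2. Its normalized log2 signal was 5.39 and 5.40 against 5.44 and 5.45, a difference of -0.054 ± 0.020 (limma adjusted p = 0.0277), against -0.060 and no call without normalization (limma adjusted p = 0.655). Every one of these signals lay below the median of the negative controls of its array, so neither call concerns a miRNA measured above the blank. Without replicate 2 of Reference 1 neither was called, with -0.046 for miR-466h (limma adjusted p = 0.153) and -0.058 for miR-466f-3p (limma adjusted p = 0.0769). miR-466f-3p also lost its call without replicate 1 of Reference 1 (-0.050, limma adjusted p = 0.127) and without replicate 2 of Reference 2 (-0.044, limma adjusted p = 0.101).

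Of the miR-297 pair, miR-297c was higher in Reference 1 and miR-297b-5p was not called. miR-297c, named after its values were seen as the remaining called miRNA, had 48 and 45 units in Reference 1 and 42 and 42.25 in Reference 2. Its normalized difference was 0.11 ± 0.022 (limma adjusted p = 0.00026), and it passed the background test on no array. Of its spots, 5% and 0% exceeded the negative control threshold in Reference 1. Its 48 units on the first Reference 1 array equalled the median of the negative controls there, and both Reference 2 signals lay below that of their own array.

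The calls followed the design of the probes. All of the 9 miRNAs with 2 probes were higher in Reference 1, as was miR-669b with its 5 probes, whereas of the 10 with 4 probes none was higher, also at an unadjusted p under 0.05, and 2 were lower. On every array the signals of all 10 miRNAs with 4 probes lay at or below the median of the negative controls, with 36.0 to 43.5 units in Reference 1 and 39.0 to 44.5 in Reference 2. Calls differed by probe number over the array as a whole too. Of 286 mouse miRNAs with 2 probes 47.9% were higher in Reference 1, and of 264 with 4 probes 14.8% were. Lower calls made up 38.5% and 28.8% of these. Among miRNAs that never passed the background test, 24.5% of 53 with 2 probes were higher and 32.1% lower, and 9.96% of 241 with 4 probes were higher and 29.5% lower. The part of probe design in the calls was not tested.

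Of the 10 higher miRNAs, 5 never passed the background test. Their differences ranged from 0.10 to 0.19, and of all 305 mouse miRNAs that never passed it 12.8% were called higher and 30.5% lower. The 8 miRNAs not called and the 2 lower ones were also not well above background.

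The separate probes gave a second view of each miRNA. In the 10 higher miRNAs all 23 probes had a difference above 0, from 0.0086 to 0.52, and in 22 of them the references did not overlap. The exception was 1 probe of miR-669b. The 2 probes of miR-467b gave 0.17 and 0.52 and those of miR-669a gave 0.28 and 0.29, so the probes of miR-467b disagreed in size and those of miR-669a were close. In the 2 lower miRNAs 7 of 8 probes lay below 0, with no overlap in 5. The exception was 1 probe of miR-466h, at 0.036. In the 8 not called, 12 probes lay above 0 and 20 below.

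**Figure D3:**
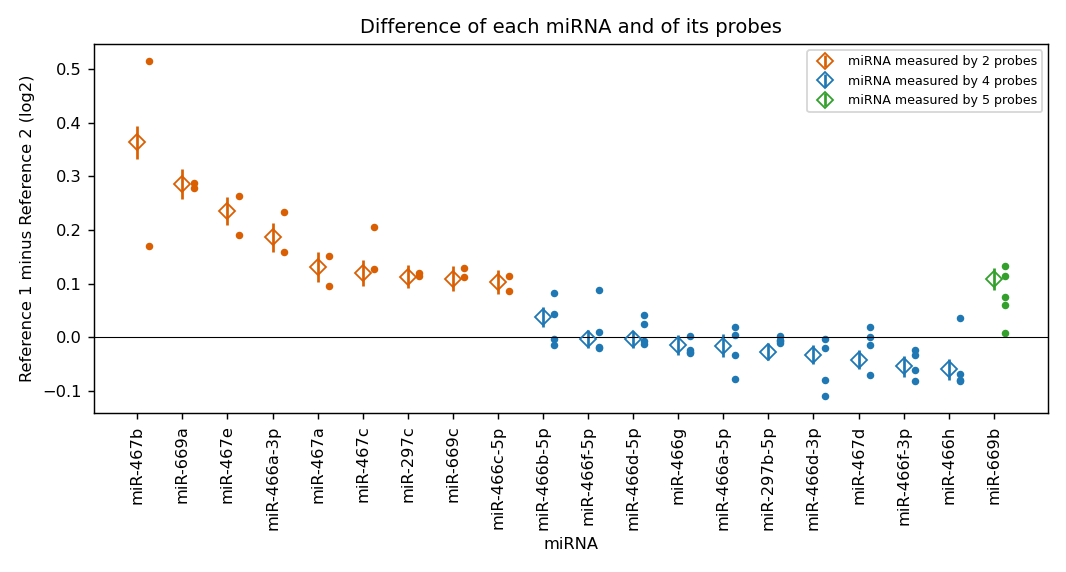
Difference between the references (vertical axis, Reference 1 minus Reference 2, log2) for each of the 20 miRNAs, as open diamonds with the SE as bars, and for each of its probes as dots, colored by the number of probes per miRNA. The miRNAs with 2 probes have all dots above 0. Those with 4 probes have dots from -0.11 to 0.088, all below 0 for miR-466d-3p and miR-466f-3p and on both sides of 0 for the others.

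The signals above were not corrected for background, and 2 corrections were tried. Normexp, run on the mean rather than the median signal of each spot, adds an offset of 50 units before the log. The log2 difference was then 0.25 for miR-467b, 0.21 for miR-669a and 0.071 for miR-467c, smaller than without correction. The correction and the change from median to mean cannot be told apart here. In the scanner software's background-corrected signal, scaled between arrays and held at no less than 1 unit, miR-467b had 37.77 and 40.82 units in Reference 1 and 8.5 and 7.81 in Reference 2. miR-669a had 26.99 and 26.89 units against 2.76 and 2.23. No size is given for either, since neither passed the background test in Reference 2. For miR-467e, with 13.86 and 13.97 units, for miR-467a, with 9.46 and 10.76, and for miR-467c, with 6.05 and 7.95, both Reference 2 values were at the limit of 1 unit. The 2 lower miRNAs were at that limit on all 4 arrays.

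The size of the differences also rested on the form of the normalization. The study used cyclic lowess, in which each array is bent toward the others by smooth curves of difference against signal. Over 21 forms of it that were compared, the difference of miR-467b ranged from 0.029 to 0.36 and that of miR-669a from -0.020 to 0.29, and the values given above are the highest of each range. miR-467b was called higher in 18 of the 21 forms and miR-669a in 15. Without any normalization both were called higher, with larger differences of 0.76 for miR-467b and 0.63 for miR-669a. With each array only centred on its median the differences were 0.72 and 0.59. With outlier spots left out they were 0.53 and 0.26. miR-467c and miR-467e were called higher in all 21 forms, as were miR-297c, miR-466a-3p, miR-466c-5p, miR-669b and miR-669c, and miR-467a in 19. miR-466h was called lower in 7 forms and miR-466f-3p in 3. With the adjustments applied pair by pair in 3 repeated passes, 9 of the 20 were higher and 0 were lower (2 at an unadjusted p under 0.05), and miR-669a lost its call with a difference of 0.048 (limma adjusted p = 0.196).

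Under the 16 other settings tried, which include repeated pairwise lowess, the 10 higher miRNAs kept their direction wherever they were tested. The fit of miRNAs above background did not test miR-297c, miR-466a-3p, miR-466c-5p, miR-669b and miR-669c, and the deposited values did not list miR-466a-3p. The 5 miRNAs which that fit did test had passed the background test in Reference 1 alone. Their differences there were those given above, so their calls in it add no separate support. The 2 lower miRNAs did not turn positive either, with a difference of 0 in the processed signal, but miR-466h kept its call in 10 of the 16 settings and miR-466f-3p in 7, against 13 to 16 for the higher ones. A setting that did not test a miRNA counts here as a call not kept. This was 1 setting for each of the 2 lower miRNAs and 0 to 2 for the higher ones. With each array centred on its median and no curve fitted, 10 of the 20 were higher and the other 10 lower, and over all mouse miRNAs higher calls made up 35.7% of calls in place of 47.9%. Without any normalization 6 were higher and 0 lower, also 0 at an unadjusted p under 0.05, with higher calls at 69.2% of all calls. With the processed signal 9 were higher and 0 lower, again 0 unadjusted, with higher calls at 67.8%. There the 10 miRNAs with 4 probes were at the limit of 1 unit on all 4 arrays, so no call was possible for them. Of the others, only miR-467b and miR-669a were above that limit in Reference 2, so the rest had no spread there. In the values the authors deposited, which list 19 of the 20 by name, 9 were higher and 3 lower, and the difference was 0.42 for miR-467b and 0.35 for miR-669a.

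**Figure D4:**
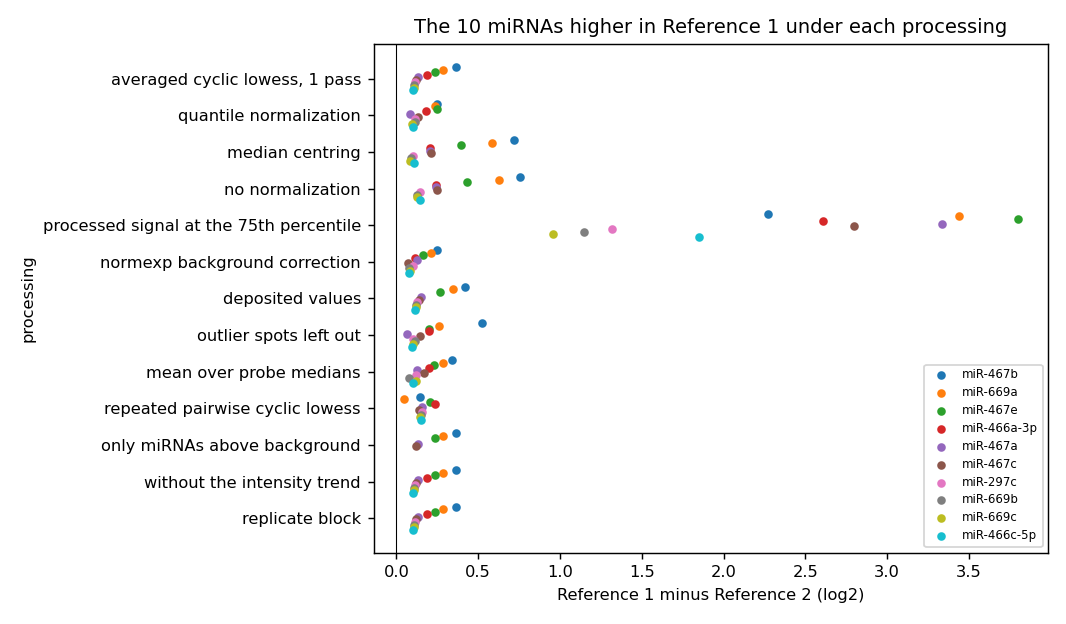
Difference between the references (horizontal axis, Reference 1 minus Reference 2, log2) of the 10 miRNAs called higher in Reference 1, under the processing alternatives (vertical axis), with 2 of the 21 forms of cyclic lowess and without the fits that leave out an array. All points shown lie to the right of 0. In the processed signal all but miR-467b and miR-669a were at the limit of 1 unit in Reference 2, so those points have no exact size.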

How the data were processed

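The 4 Agilent samples, 2 aliquots of each reference, were measured in one color. The authors' deposited scanner files hold spot intensity from Agilent Feature Extraction 9.5.3.1, not yet normalized, and their deposited table holds log2 values after cyclic lowess. As in the study's methods, median spot signals were taken with no subtraction of background. Their log2 values were adjusted by cyclic lowess over all non-control spots, and each miRNA was given the median of its spots. The references were compared with limma 3.58.1 in R 4.3.3, with an intensity trend, two-sided, and Benjamini-Hochberg adjustment over 566 mouse miRNAs at 0.05. Precision is limited by the number of arrays, which is 2 for each reference.

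The design named cyclic lowess without its form. A first fit with pairwise adjustments in 3 repeated passes gave 9 of the 20 miRNAs higher and 0 lower. After that result was seen, 21 forms (limma's 3 methods, 1 to 3 passes, spans of 0.3 and 0.7, and miRNA medians in place of spots) were set beside the deposited values, with the differences of miR-467b and miR-669a in view. The form used averages the adjustments over the other arrays, as the study's methods describe. Its single pass and its span of 0.7 are choices made here, since the methods give neither. It gave 10 higher and 2 lower, and the highest differences of both miRNAs among the 21. Its root mean square distance from the deposited values was 0.029, against 0.0633 for the first form and 0.0283 for the closest one.

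The rule for the members used names only, but members and lists were chosen with earlier results of these data known. Described in full were the miRNAs well above background on at least 1 array, and the 5 highest and 5 lowest differences among those called. Grouping by seed sequence was not done. The scripts were tested on simulated data. Data from the other platforms were not used here.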

Additional observations from a re-analysis of the deposited data

How the results depend on the processing

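Under 16 alternatives, 164 values of the called miRNAs kept direction and call, and 20 lost the call. Of the values of miRNAs not called, 93 stayed uncalled and did not reverse direction, 15 kept direction but gained a call, and 12 reversed direction. The 93 include a difference of 0 in the processed signal for each of the 8 miRNAs. Median centring called all 8 of these miRNAs lower. miR-467d was also called lower in the deposited values (-0.042, limma adjusted p = 0.0424) and with normexp (-0.034, limma adjusted p = 0.0438). With the replicate number as a block it was called lower too (-0.041, limma adjusted p = 0.0499). Its difference ranged from -0.054 to -0.028 with 1 array left out. miR-466d-3p was called lower with the mean over probes (-0.052, limma adjusted p = 0.00589). miR-467b, miR-467c and miR-467e were called higher in all 16. Among these, the fit with only miRNAs above background reused the same differences, so it adds no separate support. miR-467a lost its call with quantile normalization (0.085, limma adjusted p = 0.0793), and miR-297c, miR-466c-5p, miR-669b and miR-669c lost theirs without normalization, the last also with the processed signal (limma adjusted p = 0.24). The number of higher miRNAs moved by over 1.5 times to 6 without normalization and to 5 with only the 5 miRNAs above background tested. The number of lower miRNAs was 10 with median centring and 1 with outlier spots left out. It was 0 without normalization, without the intensity trend and with repeated pairwise lowess. It was also 0 with the processed signal, where both lower miRNAs were at the limit of 1 unit on every array. With only miRNAs above background it was 0 because neither of them was tested. Leaving out 1 array gave 10 to 11 higher and 0 to 3 lower miRNAs. The lower count was 1 without replicate 1 of Reference 1, 0 without replicate 2 of Reference 1 and 3 without replicate 1 of Reference 2. miR-466f-3p lost its call without either Reference 1 array or replicate 2 of Reference 2, and miR-466h without replicate 2 of Reference 1. With 1 array of a reference left, that array is assumed to vary like those of the other. Replicate numbers only name aliquots. Same-numbered samples had deviations correlated at 0.0798, and with the replicate number as a block 11 miRNAs were higher and 3 lower.

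Reversed directions were those of miRNAs not called in the fit described above, apart from miR-669a, at -0.020 in 1 lowess form (pairwise, 3 passes, span 0.3). miR-466b-5p turned to -0.051 with median centring, where it was called lower (limma adjusted p = 0.0152), and to -0.011 without normalization. With the replicate number as a block it was called higher (0.038, limma adjusted p = 0.0388), so its calls went in opposite directions between settings. Its difference ranged from 0.015 to 0.062 with 1 array left out. With normexp, miR-466a-5p turned to 0.0096, miR-466f-5p to 0.0037 and miR-466g to 0.0015. miR-466a-5p was 0.010 without outlier spots, and ranged from -0.050 to 0.020 with 1 array left out, with 0.0046 without replicate 2 of Reference 1. miR-466f-5p ranged from -0.023 to 0.017 with 1 array left out, and was 0.016 with the mean over probes, where miR-466d-5p was 0.012. Over the other lowess forms the lower count was 0, 1 or 2, and the reversed differences were 0.0055 for miR-297b-5p, 0.0116 and 0.0013 for miR-466a-5p, 0.0292, 0.0074 and 0.0114 for miR-466d-5p, 0.0337, 6e-04, 7e-04, 0.0136 and 0.0138 for miR-466f-5p, and 0.0078, 6e-04, 0.0071, 0.0033, 0.0073, 0.0031, 0.0069, 0.0187, 0.0065, 0.0035, 0.0089 and 0.0086 for miR-466g. The causes were not tested. Signals near the blank level limit every value of these miRNAs in Reference 2.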
